A study of Mus musculus with 15 samples.

Results

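AP-1 is a family of transcription factors, and 9 of its genes were followed here: Fos, Fosb, Fosl1 and Fosl2 of the Fos family, Jun, Junb and Jund of the Jun family, and Atf3 and Batf. They were chosen by name, with earlier results of these data known. Every probe set that the platform annotation gives to 1 of these genes was taken. That made 13 of the 45101 probe sets on the arrays of CD4+ T cells and 11 of the 22690 on the arrays of thymocytes. All 9 genes had a probe set on both array types, and no member probe set is annotated to several genes. The 15 arrays are from mice of the 129/SJ background, 6 to 20 weeks old by the labels (6 weeks for the thymocytes in the study's methods), and the WT mice were littermates of the KO mice. Splenic CD4+ T cells, isolated by cell sorting, came from WT mice and from N-Ras KO mice, which lack the small GTPase N-Ras, and were cultured overnight with or without 1 µg/ml of anti-CD3 and anti-CD28 antibodies, in 4 groups of 3 arrays. These antibodies engage the T cell receptor (TCR) and its costimulator. Thymocytes, the T cell precursors that mature in the thymus, were taken straight from 3 mice, 1 each of WT, of N-Ras KO and of H-Ras KO genotype, and were not stimulated.

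A Fos protein cannot bind DNA as a dimer with itself and pairs with a Jun protein through a leucine zipper, whereas Jun proteins can also pair among themselves. Several of these genes are immediate early genes, whose transcription begins within minutes of a signal without new protein synthesis and usually fades within hours. In T cells the TCR reaches them through Ras and the ERK kinases, which act on Fos, and through the JNK kinases, which phosphorylate Jun, and AP-1 then acts with NFAT at cytokine genes.

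The deposited values are log2 expression relative to controls. In CD4+ T cells the median of the 3 unstimulated arrays of each genotype was 0 on every probe set, and in thymocytes the median of the 3 arrays was 0, so that the values hold differences and no level of expression. Neither the cell type labels nor the order of these genes by abundance could therefore be checked, and WT and N-Ras KO cells cannot be compared before stimulation. Arrays are named below by genotype, condition and number, and stimulated and unstimulated arrays of 1 number and genotype are called a pair. The Nras gene went against 2 labels in CD4+ T cells. This was clearest on the probe set 1454060_a_at, where the pair labelled N-Ras KO 3 was high, at 2.04 log2 unstimulated and 2.09 log2 stimulated, and the pair labelled WT 1 was low, at -2.68 and -3.04 log2. On 1422688_a_at both pairs lay furthest out in the same directions. There the stimulated N-Ras KO array 3, at 0.80 log2, stood less far from the stimulated N-Ras KO array 1, at 0.40 log2. On 1422687_at the stimulated WT array 1, at -0.14 log2, was level with the stimulated WT array 3, at -0.19 log2. In thymocytes the N-Ras KO array was low on 1454060_a_at, at -2.38 log2. Member responses whose call or sign turns without the pairs labelled N-Ras KO 3 and WT 1 are given with and without them. By the study's methods each repetition used other mice, and whether the stimulated and unstimulated cells of a repetition shared a mouse is described in 2 ways.

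Fos, the founding member and a classic target of ERK signaling, had the largest mean response to overnight stimulation among the members in both genotypes when all arrays were used. On its probe set, 1423100_at, the WT arrays 1, 2 and 3 stood at -1.37, 1.12 and 0.00 log2 without stimulation and at 2.97, 2.24 and 1.88 log2 with it. All 3 stimulated WT arrays lay above all 3 unstimulated ones. The WT response was 2.45 log2, or 5.45-fold (standard error 0.77 log2, unadjusted p = 0.00963, adjusted p = 1.00 from limma), from -0.08 ± 1.24 to 2.36 ± 0.55 log2 (SD, n = 3 each). The N-Ras KO arrays 1, 2 and 3 stood at 0.42, 0.00 and -1.45 log2 without stimulation and at 0.37, 2.04 and 2.87 log2 with it. Here the groups overlapped, since stimulated array 1 lay below unstimulated array 1. The N-Ras KO response was 2.10 log2, or 4.29-fold (standard error 0.77 log2, unadjusted p = 0.0209, adjusted p = 1.00 from limma). With the pairs as a block its unadjusted p was 0.0611 in limma, and leaving out stimulated array 3 gave 1.55 log2 and an unadjusted p of 0.0872. For the WT response the unadjusted p with this block was 0.0366 in limma. Leaving out unstimulated WT array 1 gave 1.805 log2 and an unadjusted p of 0.0447.

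The widest Fos responses were found in the 2 pairs whose Nras values went against their labels. The pair labelled WT 1 differed by 4.33 log2 and the pair labelled N-Ras KO 3 by 4.32 log2, whereas the other WT pairs differed by 1.13 and 1.88 log2 and the other N-Ras KO pairs by -0.05 and 2.04 log2. Both wide pairs also had the lowest unstimulated Fos values of their genotype. Without these 2 pairs the Fos response was 1.503 log2 in WT (unadjusted p = 0.0496 in limma) and 0.99 log2 in N-Ras KO cells (unadjusted p = 0.158). Fos was then level with Fosl1 in WT cells (1.494 log2, unadjusted p = 0.117 in limma) and lay closer to 0 than Jun in N-Ras KO cells.

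Fosb, the closest relative of Fos and also an immediate early gene, was higher with stimulation in each of the N-Ras KO pairs. On 1422134_at the N-Ras KO arrays 1, 2 and 3 stood at -0.12, 0.00 and 0.38 log2 unstimulated and at 0.84, 0.55 and 2.58 log2 stimulated. The stimulated N-Ras KO arrays lay above all the unstimulated ones, with array 3 far above the other two. The response was 1.23 log2, or 2.35-fold (standard error 0.49 log2, unadjusted p = 0.0303, adjusted p = 1.00 from limma). Without stimulated array 3 it was 0.61 log2, with an unadjusted p of 0.113, and without the pairs labelled N-Ras KO 3 and WT 1 it was 0.75 log2, with an unadjusted p of 0.0353. In WT cells Fosb stood at -0.38, 0.58 and 0.00 log2 unstimulated and at 0.89, 0.04 and 0.23 log2 stimulated. These WT groups overlapped, and 2 of the 3 pairs were higher. The WT response of 0.32 log2 (unadjusted p = 0.523 in limma) turned to -0.15 log2 without the pairs named above.

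**Figure D1:**
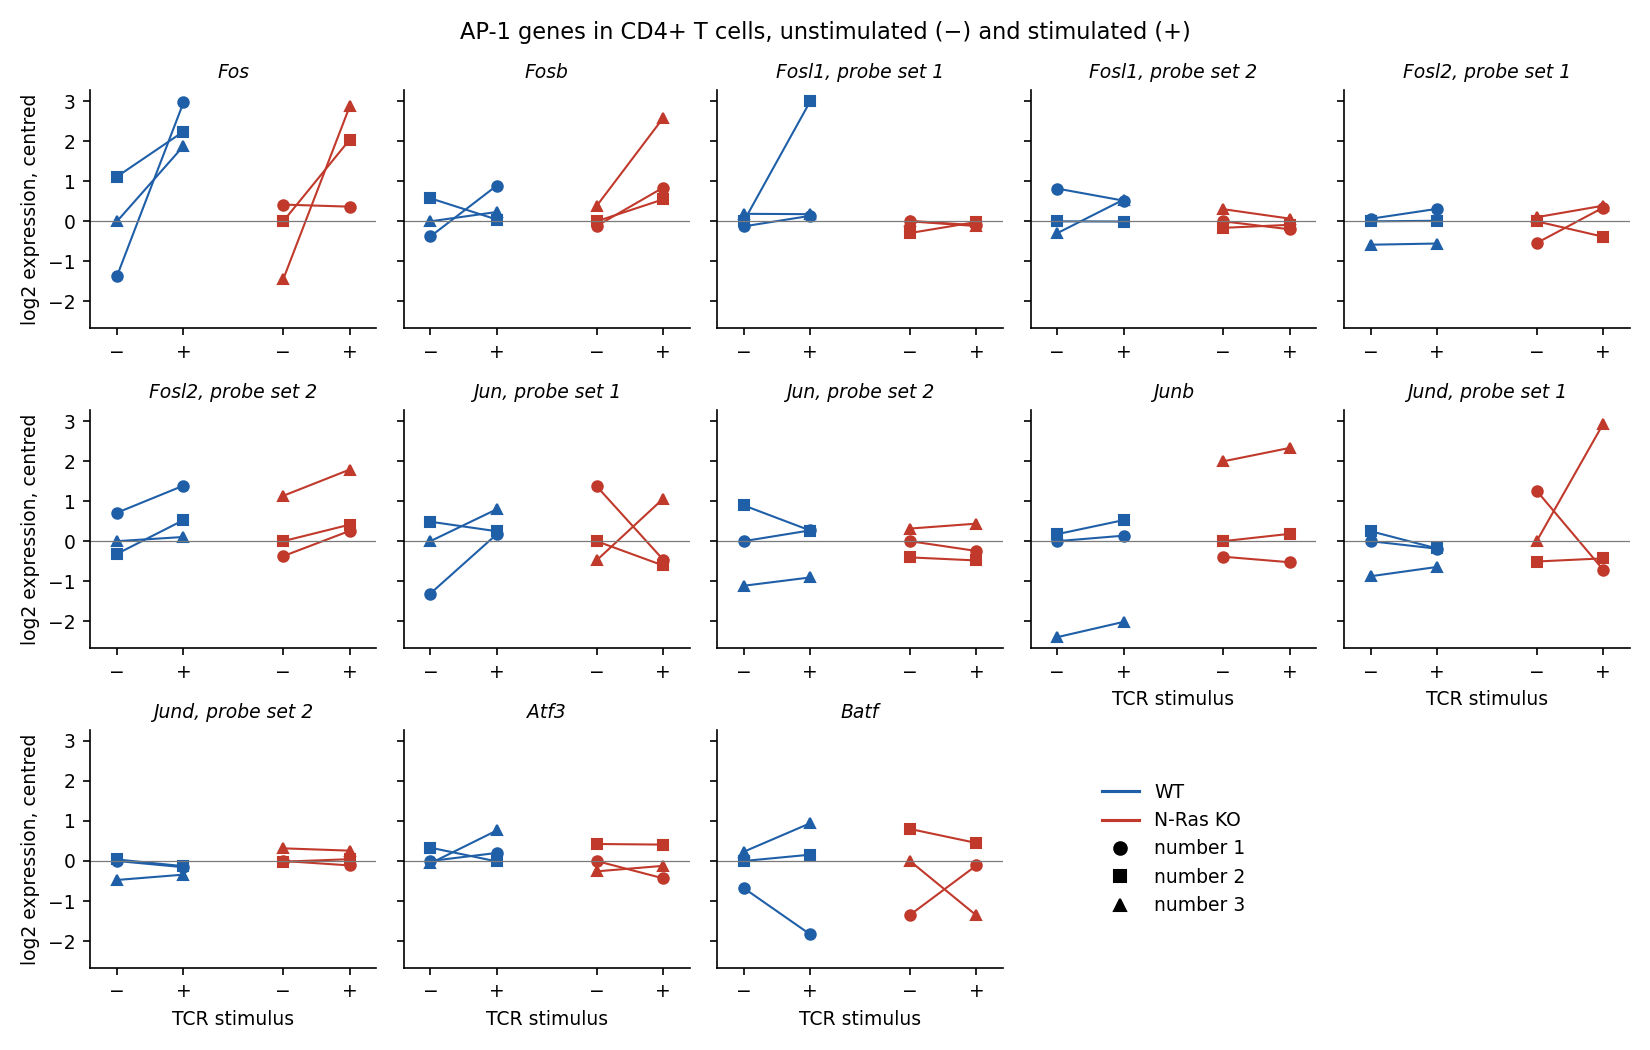
Log2 expression of each member probe set in CD4+ T cells, on a scale on which the median of the unstimulated arrays of each genotype is 0. Each line joins the unstimulated (−) and stimulated (+) arrays of 1 number, in blue for WT and red for N-Ras KO. Fos rises on every line except the N-Ras KO line numbered 1, which is nearly flat. The Junb lines numbered 3 lie near -2 log2 in WT cells and near 2 log2 in N-Ras KO cells before and after stimulation.

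Fosl1 and Fosl2 encode Fra-1 and Fra-2, Fos proteins that lack the strong activation domain of Fos and often follow it in time. For Fosl1 a single array stood out. On 1417487_at the stimulated WT array 2 was at 3.00 log2, and the other 11 arrays lay between -0.29 and 0.19 log2. The WT response on this probe set was 1.08 log2 (unadjusted p = 0.107 in limma) and the N-Ras KO response was 0.01 log2. The other Fosl1 probe set, 1417488_at, did not show this value, with -0.00 log2 on the same array, and the probe sets had r = -0.0904 over the 12 arrays, which share 6 pairs.

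Fosl2 was higher with stimulation in every pair on 1 of its 2 probe sets. On 1437247_at the WT pairs 1, 2 and 3 differed by 0.68, 0.84 and 0.10 log2 and the N-Ras KO pairs by 0.63, 0.41 and 0.65 log2. It was the only member probe set that was higher with stimulation in 6 of 6 pairs, as were 2.42% of all probe sets. The responses were 0.54 log2 in WT cells and 0.57 log2 in N-Ras KO cells, with unadjusted p-values of 0.333 and 0.312 in limma and of 0.0228 and 0.0191 with the pairs as a block. The adjusted p-values with the block were 1.00 and 0.664. On the other Fosl2 probe set, 1422931_at, the responses were 0.10 and 0.26 log2, and 5 of 6 pairs were higher.

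Jun, the partner of Fos in the best known AP-1 dimer, had a smaller mean response than Fos, with the pairs in the same order. On 1417409_at the WT pairs 1, 2 and 3 differed by 1.48, -0.24 and 0.80 log2 and the N-Ras KO pairs by -1.83, -0.61 and 1.54 log2. Both genotypes thus had pairs in either direction, and the pairs labelled WT 1 and N-Ras KO 3 were highest, as for Fos. The responses were 0.68 log2 in WT cells and -0.30 log2 in N-Ras KO cells (standard error 0.61 log2, unadjusted p = 0.293 and 0.635 in limma). Without the pairs labelled N-Ras KO 3 and WT 1 the N-Ras KO response was -1.22 log2 (unadjusted p = 0.0437, adjusted p = 1.00 in limma) and the WT response 0.28 log2 (unadjusted p = 0.584). On the other Jun probe set, 1448694_at, the responses were -0.05 and -0.07 log2 with all arrays and -0.21 and -0.16 log2 without these pairs, and the probe sets had r = 0.133 over the 12 arrays.

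Junb, a Jun protein that can restrain Jun and is tied to cytokine expression in T helper cells, varied far more between pairs than with stimulation. On 1415899_at the WT arrays 1, 2 and 3 stood at 0.00, 0.17 and -2.40 log2 unstimulated and at 0.14, 0.53 and -2.02 log2 stimulated. The N-Ras KO arrays stood at -0.39, 0.00 and 1.99 log2 unstimulated and at -0.53, 0.18 and 2.33 log2 stimulated. The arrays numbered 3 thus lay far below the rest in WT and far above it in N-Ras KO cells. Opposite deviations of these arrays were not limited to Junb. Over all probe sets the deviations from the group mean of the WT and N-Ras KO arrays numbered 3 had r = -0.621 unstimulated and -0.526 stimulated. For the arrays numbered 1 and 2 r was between -0.266 and -0.117. The arrays numbered 3 also had the widest SD over all probe sets in each group. Within pairs the response was 0.29 log2 in WT, higher in 3 of 3 pairs, and 0.13 log2 in N-Ras KO cells, higher in 2 of 3 pairs. Its standard error of 1.01 log2 became 0.149 log2 with the pairs as a block, where the unadjusted p-values were 0.0980 and 0.425 in limma. On the same arrays numbered 3, the mean of 9 T cell genes was 0.60 and 0.48 log2 in WT cells and -0.57 and -0.77 log2 in N-Ras KO cells, so that it moved against Junb. Its part in the Junb values was not tested.

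Jund, the Jun gene with the steadiest expression in most tissues, was nearly level on 1449117_at, with responses of -0.06 log2 in WT cells and -0.04 log2 in N-Ras KO cells and single values between -0.47 and 0.32 log2 on all 12 arrays. On 1440265_at the N-Ras KO pairs 1, 2 and 3 differed by -1.97, 0.08 and 2.93 log2, and the response of 0.35 log2 became -0.95 log2 without the pairs labelled N-Ras KO 3 and WT 1. Atf3, a stress-induced partner of Jun, had responses of 0.23 log2 in WT cells and -0.10 log2 in N-Ras KO cells, and the largest difference within a pair was 0.82 log2. Batf, a partner of Jun that acts with IRF4 in T cells, had pairs between -1.16 and 0.71 log2 in WT and between -1.36 and 1.24 log2 in N-Ras KO cells. Its mean responses were -0.10 and -0.16 log2, within the spread of the pairs, and 0.44 log2 in each genotype without the pairs labelled N-Ras KO 3 and WT 1.

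**Figure D2:**
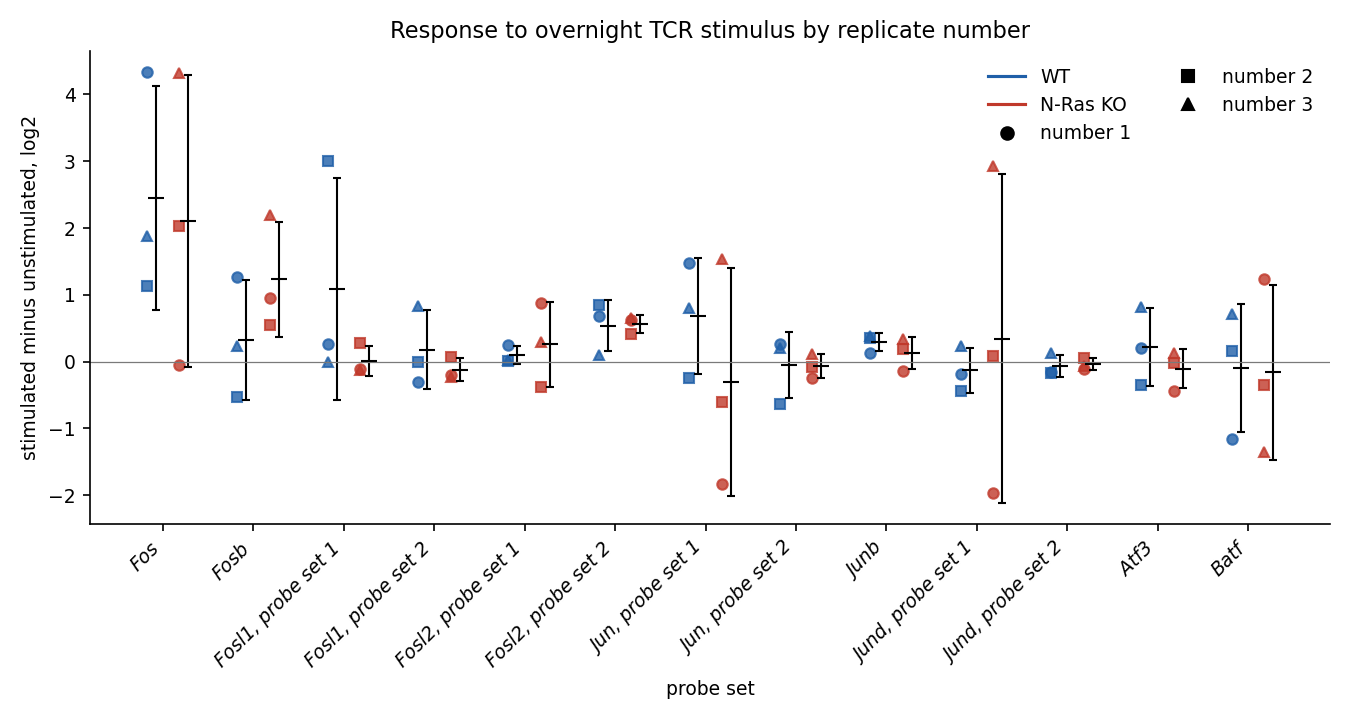
Stimulated minus unstimulated log2 expression of each member probe set, by pair of arrays, in blue for WT and red for N-Ras KO cells, with symbols for the pair number. The black marks give the mean ± SD of 3 pairs. The 3 WT values of Fos lie between 1.13 and 4.33 log2 and the 3 N-Ras KO values of Fosb between 0.55 and 2.20 log2, and for most other probe sets the pairs straddle 0.

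Counted over the members, 0 of 13 probe sets passed an adjusted p of 0.05 in limma in either genotype, as did 0 of the 45101 probe sets (0.0%). At the thresholds of the study's methods (unadjusted p under 0.05 and at least 1.5-fold), 1 of 13 member probe sets, that of Fos, was higher with stimulation in WT cells, against 0.53% of all probe sets. In N-Ras KO cells 2 of 13 were higher, those of Fos and Fosb, against 1.16% of all probe sets. No member was lower in either genotype, as 0.51% and 1.19% of all probe sets were. Without the pairs labelled N-Ras KO 3 and WT 1 the genes called in N-Ras KO cells were others, Fosb as higher (1.64% of all probe sets) and Jun as lower (1.47%). In WT cells Fos alone was higher (0.736%) and no member lower (0.918%). At an unadjusted p under 0.05 alone the counts were the same 1 and 2 probe sets, against 520 (1.15%) and 1162 (2.58%) of all. With the pairs as a block they were Fos and Fosl2 in WT cells (4.3% of all) and Fosb and Fosl2 in N-Ras KO cells (7.1%). With the pairs as a block 1 member passed the methods' thresholds in N-Ras KO cells, Fosb, against 2.25%, and Fos alone in WT cells, against 1.43%. By the methods' t-test Fos passed in WT cells (0.423% of all probe sets) and no member in N-Ras KO cells (0.388%). The stimulated group lay wholly above the unstimulated one on 1 member probe set in each genotype, Fos in WT and Fosb in N-Ras KO cells, against 2.27% and 2.72% of all probe sets. Higher in all 3 pairs were 4 member probe sets in WT cells (14.5% of all), of Fos, Fosl2 and Junb, and 2 in N-Ras KO cells (13.8%), of Fosb and Fosl2. The median response of the 13 probe sets was 0.23 log2 in WT cells and 0.01 log2 in N-Ras KO cells, beside 0.00 and 0.01 log2 over all probe sets.

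Whether the lack of N-Ras altered these responses was tested as the difference between the responses, WT minus N-Ras KO, with genotypes as labelled. No member probe set reached an unadjusted p of 0.05, as 1.3% of all probe sets did (1.29% with at least 1.5-fold), and 0 of 45101 passed the adjusted threshold (0.0%). For Fos the difference was 0.34 log2 (95% confidence interval -2.08 to 2.77 log2, unadjusted p = 0.758 in limma), and for Fosb it was -0.91 log2 (-2.45 to 0.63 log2, unadjusted p = 0.220 in limma). For Fosl1 on 1417487_at it was 1.07 log2 (unadjusted p = 0.245 in limma) and for Jun on 1417409_at 0.98 log2 (unadjusted p = 0.284 in limma), with intervals of -0.86 to 2.99 and -0.95 to 2.91 log2. These values are from the fit without pairs. With the pairs as a block the unadjusted p in limma was 0.799 for Fos, 0.184 for Fosb, 0.230 for Fosl1 and 0.321 for Jun. Without the pairs labelled N-Ras KO 3 and WT 1 the Jun difference was 1.499 log2 (unadjusted p = 0.0693 in limma) and that of Fosb -0.90 log2 (unadjusted p = 0.0622). That of Fos was then 0.51 log2 (unadjusted p = 0.582) and that of Fosl1 1.41 log2 (unadjusted p = 0.269). Jund on 1440265_at went from -0.48 to 0.85 log2 (unadjusted p = 0.385 in limma). With all arrays the difference lay between -0.48 and 0.33 log2 for the remaining 9 member probe sets. These p-values do not show that the genotypes responded alike. The stimulated arrays were also compared, WT minus N-Ras KO, each genotype on the scale set by its own unstimulated arrays. This too is a difference relative to 2 separate baselines and not one of stimulated levels. The error of those baselines is left out of its standard error and p-values. Whether the stimulated groups overlap also depends on where each baseline was set. Again no member passed the methods' thresholds, which 6.9% of all probe sets did (0.0% at an adjusted p of 0.05, 7.6% at an unadjusted p under 0.05). The stimulated groups did not overlap for Fosl1 on 1417487_at, higher in WT by 1.18 log2 (unadjusted p = 0.0820 in limma, against 6.28% of all probe sets wholly higher), or for Jund on 1449117_at, lower with a difference of -0.27 log2 (unadjusted p = 0.216, against 7.46% wholly lower).

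In the thymocytes Fos, Jun, Fosb and Junb were each higher in the WT array than in both KO arrays. Each genotype has a single array, so that no test could be run and mouse and genotype cannot be told apart. Nor can more cells of a type be told apart from more RNA per cell. Fos was at 1.63 log2 in WT, 0.00 log2 in H-Ras KO and -1.91 log2 in N-Ras KO thymocytes, which put WT 11.6-fold above N-Ras KO and 3.08-fold above H-Ras KO. Jun on 1417409_at was at 1.80, 0.00 and -1.59 log2 in the same order, 10.5-fold above N-Ras KO and 3.49-fold above H-Ras KO. The other Jun probe set had the same order, at 1.29, 0.00 and -1.53 log2, or 7.06-fold and 2.45-fold. Both genes were thus highest in WT and lowest in N-Ras KO thymocytes.

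Fosb and Junb differed from Fos and Jun in how close the KO arrays lay to each other. Fosb was at 1.75 log2 in WT, 0.00 log2 in H-Ras KO and -0.56 log2 in N-Ras KO thymocytes, so that WT was 4.96-fold above N-Ras KO and 3.37-fold above H-Ras KO. Junb was at 1.65, 0.00 and -0.22 log2, or 3.64-fold and 3.13-fold. The N-Ras KO array was at least 1.5-fold below the H-Ras KO array on 3 member probe sets, those of Fos and Jun, against 1.04% of all probe sets. Among all 22690 probe sets, ranked by WT minus N-Ras KO, Fos was 7th, Jun 8th and 10th, Fosb 22nd and Junb 28th from the top. Ranked by WT minus H-Ras KO they lay between places 34 and 67.

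The remaining members moved little or were listed at 0. Jund was at 0.25 log2 in WT, -0.17 log2 in H-Ras KO and 0.00 log2 in N-Ras KO thymocytes, and Atf3 was at 0.46, -0.01 and 0.00 log2 in the same order, so that WT lay 1.37-fold above N-Ras KO and 1.38-fold above H-Ras KO for Atf3. In that order, Batf was at 0.10, -0.02 and 0.00 log2, and Fosl2 at -0.00, 0.00 and 0.00 log2. Both Fosl1 probe sets were listed at 0 on all 3 arrays, as were 5379 probe sets (23.7%). In all, the WT array lay at least 1.5-fold above the N-Ras KO array on 5 of 11 member probe sets (1.09% of all probe sets) and above the H-Ras KO array on the same 5 (1.51%), which stand for 4 genes. No member was 1.5-fold lower in WT in either comparison, as 1.55% and 1.47% of all probe sets were. Both comparisons use the same WT array. Of all probe sets, 141 (0.621%) were at least 1.5-fold higher in WT in both. From these same arrays the study's authors named Fos and Jun, with Creb1, Gnb1 and Gadd45a, among the genes that both Ras isoforms regulated. The counts above are thus no independent evidence of a direction.

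**Figure D3:**
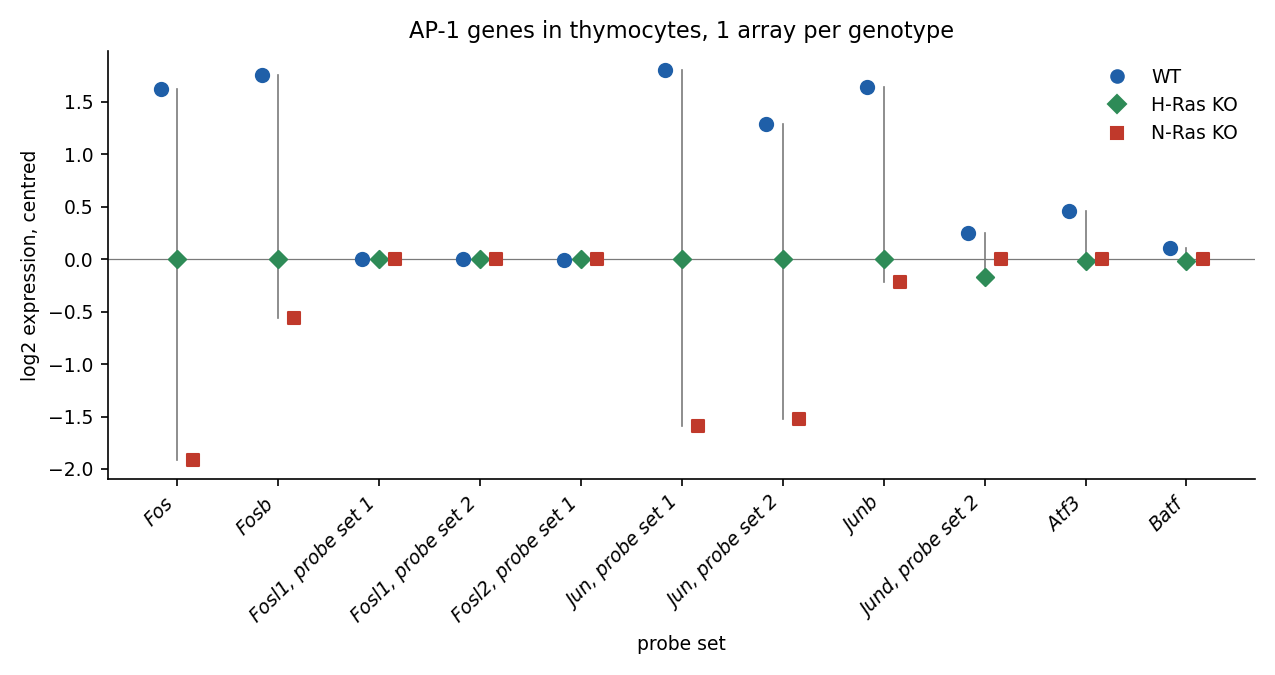
Log2 expression of the 11 member probe sets in thymocytes, on a scale on which the median of the 3 arrays is 0, with 1 array per genotype: WT (circles), H-Ras KO (diamonds) and N-Ras KO (squares). For Fos, Fosb, both Jun probe sets and Junb the WT array lies between 1.29 and 1.80 log2, and for Fos and Jun the N-Ras KO array lies below -1.5 log2.

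A stepped order, with WT at least 1.5-fold above H-Ras KO and H-Ras KO at least 1.5-fold above N-Ras KO, was found for 18 probe sets (0.0793%), and 3 of these were the probe sets of Fos and Jun. The other genes named on these 18, seen after the values were known, were Hspa1b, Hsph1, Dusp1, Ppp1r15a, Pmaip1, Rgs1, Cebpb and H2-Q2. Hspa1b and Hsph1 encode heat shock proteins, and Dusp1 encodes a phosphatase that inactivates MAP kinases. Cebpb is a leucine zipper factor outside the AP-1 family. The opposite middle, with N-Ras KO between the others, was found for 10 probe sets and no member.

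The promoters of the 4 genes that were high in WT thymocytes are shown, so that their elements can be compared. Each line gives the 250 bases before the transcription start from RefSeq on GRCm38.p6, 5′ to 3′ on the gene's strand, and 8 of the 9 members were matched in that table, all but Fosl1. Capitals mark the motifs searched on both strands. These were TGACTCA (the consensus AP-1 site), TGACGTCA (the cAMP response element), TGACATCA (an AP-1 variant), TGACG (the shorter core of the cAMP response element, which TGACGTCA contains) and TATAAA (the TATA box).
Fos, chr12:85473640-85473889, plus strand: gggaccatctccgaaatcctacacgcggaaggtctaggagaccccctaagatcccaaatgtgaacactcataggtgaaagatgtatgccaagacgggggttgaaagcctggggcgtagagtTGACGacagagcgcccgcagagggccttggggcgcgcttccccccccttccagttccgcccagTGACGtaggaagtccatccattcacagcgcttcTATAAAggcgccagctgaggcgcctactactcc
Fosb, chr7:19310046-19310295, minus strand: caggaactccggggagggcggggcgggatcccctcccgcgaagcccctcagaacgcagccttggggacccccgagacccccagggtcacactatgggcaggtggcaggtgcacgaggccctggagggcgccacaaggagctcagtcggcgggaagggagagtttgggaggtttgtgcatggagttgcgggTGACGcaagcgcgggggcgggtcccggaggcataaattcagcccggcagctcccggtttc
Jun, chr4:95052223-95052472, minus strand: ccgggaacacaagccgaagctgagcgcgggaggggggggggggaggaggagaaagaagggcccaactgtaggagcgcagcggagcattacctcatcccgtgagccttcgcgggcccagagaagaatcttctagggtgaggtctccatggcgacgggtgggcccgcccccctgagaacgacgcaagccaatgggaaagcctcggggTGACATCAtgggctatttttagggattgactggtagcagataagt
Junb, chr8:84978749-84978998, minus strand: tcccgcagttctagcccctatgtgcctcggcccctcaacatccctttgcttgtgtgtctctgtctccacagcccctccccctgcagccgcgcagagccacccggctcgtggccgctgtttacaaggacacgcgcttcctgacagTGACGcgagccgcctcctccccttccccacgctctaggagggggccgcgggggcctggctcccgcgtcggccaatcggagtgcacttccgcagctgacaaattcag

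TGACG was found in the promoters of Fos, Fosb and Junb, and also in those of Atf3 and Batf, which gives 5 of 8 members against 17.8% of the 32851 promoters. Fos holds it at 2 places, from -129 to -125 and from -66 to -62 counted from the start, and Fosb and Junb hold it at 1 place each. Jun alone among the members holds TGACATCA, from -45 to -38, as do 2.93% of all promoters, and Fos alone holds TATAAA (12.4%). TGACTCA (4.46%) and TGACGTCA (1.55%) were in none of the 8 windows. A match describes the letters only, and Atf3 and Batf, whose thymocyte differences were small, hold TGACG as well.

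Set side by side, the overnight CD4+ response with all arrays and WT minus N-Ras KO thymocytes were both largest for Fos. In WT minus H-Ras KO thymocytes Fos, at 1.63 log2, lay below Jun (1.80 log2), Fosb (1.75 log2) and Junb (1.65 log2). Fos was at 2.45 log2 for the WT response and 2.10 log2 for the N-Ras KO response, beside 3.54 log2 for WT minus N-Ras KO thymocytes. Jun, nearly as far apart as Fos in thymocytes at 3.39 log2, had responses of 0.68 and -0.30 log2. Fosb and Junb, at 2.31 and 1.87 log2 in thymocytes, had WT responses of 0.32 and 0.29 log2, and Fosb had an N-Ras KO response of 1.23 log2. Fosl1 was the reverse, with a WT response of 1.08 log2 that rests on 1 array and 0.00 log2 in thymocytes. Over 9 genes, with 1 probe set each, Spearman's rho between the WT response and WT minus N-Ras KO thymocytes was 0.567, and it was 0.417 against WT minus H-Ras KO. With the N-Ras KO response it was 0.167 and -0.0333. Over all 11 shared probe sets rho was 0.424 and 0.424 with the WT response, and 0.109 and 0.0547 with the N-Ras KO response. These values describe 9 genes that share arrays and carry no test, and the array types were normalized separately.

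**Figure D4:**
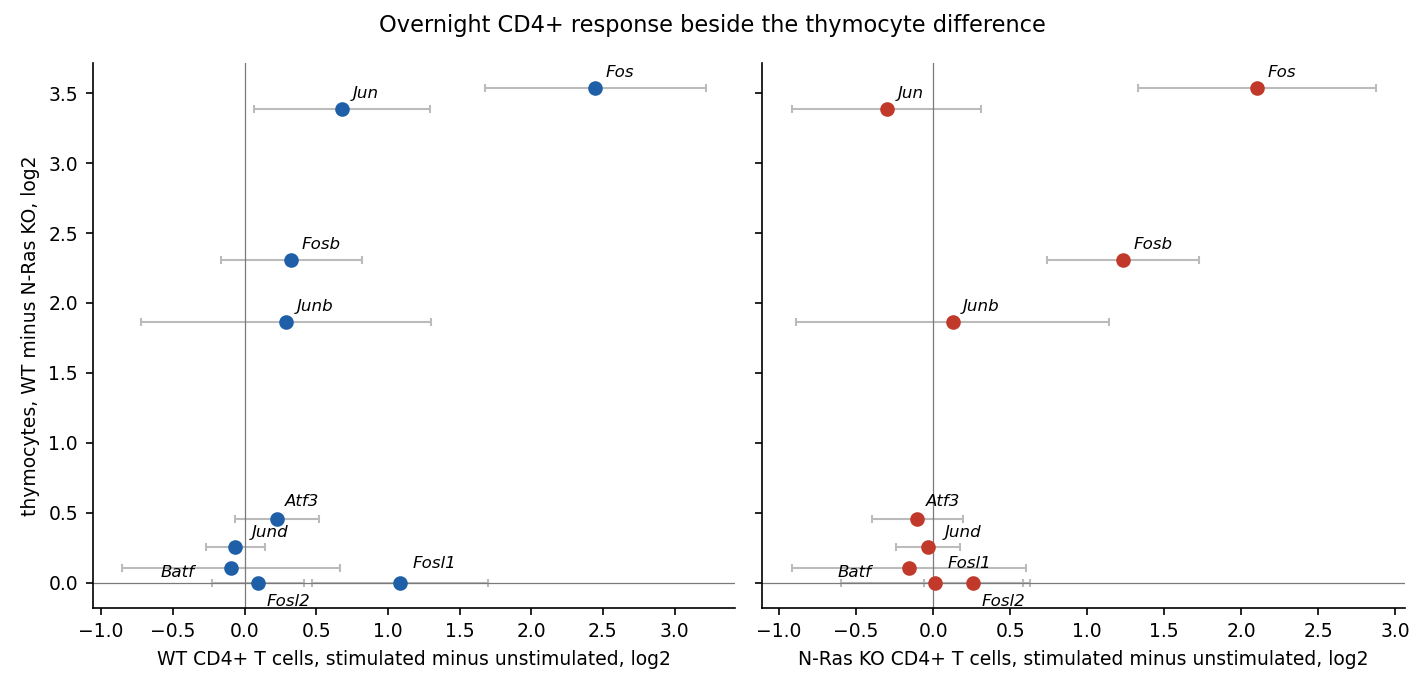
Overnight response of CD4+ T cells (horizontal, stimulated minus unstimulated, log2, with the standard error from limma; WT left, N-Ras KO right) beside WT minus N-Ras KO thymocytes (vertical, log2, 1 array each), 1 probe set per member gene. Fos is high on both axes, and Jun is at 3.39 log2 in thymocytes with a response of 0.68 log2 in WT cells and -0.30 log2 in N-Ras KO cells.

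Other genes around AP-1 were read from lists with 1 probe set per gene, for which no list test was run. Over all probe sets, 0.53% in WT and 1.16% in N-Ras KO cells were higher at the methods' thresholds. Lower were 0.51% and 1.19%. At these shares a count of 0 says little about a list of this size. Among 22 other leucine zipper partners on the array, such as Maff and Creb1, 0 passed the methods' thresholds with stimulation in either genotype, and among 19 kinases and phosphatases that act upstream of AP-1 0 passed. Of 17 transcription factors that act on or with AP-1, Irf4, the partner of Batf, was higher by 1.59 log2 in WT (unadjusted p = 0.00255 in limma) and by 2.39 log2 in N-Ras KO cells (unadjusted p = 0.000127, adjusted p = 0.819). Rel, an NF-κB subunit, was higher by 2.48 log2 in N-Ras KO cells (unadjusted p = 0.00208). Of 20 T cell genes with known AP-1 sites, 4 were higher in WT and 2 in N-Ras KO cells. They include Il2ra, the IL-2 receptor chain (1.66 log2 in WT, unadjusted p = 0.00323), and Cd69, an early activation antigen (1.13 log2 in WT cells and 1.27 log2 in N-Ras KO cells, unadjusted p = 0.00908 and 0.00464). The median over this list was 0.40 log2 in WT cells and 0.09 log2 in N-Ras KO cells, beside 0.01 log2 over all 18162 genes in each.

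Immediate early genes outside AP-1 were also among those higher after a night of stimulation. Of 22 such genes, 3 were higher in WT (0.53% of all probe sets) and 2 in N-Ras KO cells (1.16%) at the methods' thresholds. Egr2, a zinc finger factor induced by the TCR, was higher by 2.55 log2 in WT and by 5.40 log2 in N-Ras KO cells (unadjusted p = 0.00402 and 1.24e-05, adjusted p = 1.00 and 0.360 in limma). Nr4a1, a nuclear receptor that reports TCR signal, was higher by 2.22 and 3.62 log2 (unadjusted p = 0.00421 and 0.000122). The median over the list was 0.19 log2 in each genotype. For the difference of responses, WT minus N-Ras KO, 1 of the 22 genes was lower and 0 higher at the methods' thresholds. Over all probe sets 1.29% passed in either direction. B cell genes, which are not those of a sorted CD4+ T cell, were above 0 with stimulation for 9 of 11 in WT and 10 of 11 in N-Ras KO cells, beside 52.1% and 52.3% of all genes, and their mean was highest in the stimulated arrays numbered 3, at 1.41 and 1.55 log2. Neutrophil genes had a median response of -0.09 log2 in WT cells and 0.79 log2 in N-Ras KO cells, and none of 12 passed the methods' thresholds. The part of these cells in the AP-1 values was not tested.

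In thymocytes no gene of these lists was 1.5-fold lower in WT, and the lists differed in how many were higher. Over all probe sets, 1.09% were 1.5-fold higher in WT against N-Ras KO, 1.51% against H-Ras KO and 0.621% against both. Lower in WT were 1.55% against N-Ras KO and 1.47% against H-Ras KO. The WT array lay at least 1.5-fold above each KO array on 9 of 22 immediate early genes outside AP-1, and below it on none. Klf4 was higher by 2.74 and 2.18 log2, and Ppp1r15a, which restores translation after stress, by 2.46 and 1.71 log2. Dusp1, upstream of AP-1, was higher by 2.36 and 1.69 log2, and Cebpb by 1.35 and 0.76 log2. Of 19 T cell genes with known AP-1 sites, 2 passed this fold against N-Ras KO and 5 against H-Ras KO, all with WT higher, among them Ctla4, an inhibitory receptor, by 1.16 and 1.29 log2. Irf4 differed by 0.67 log2 from H-Ras KO and was not at 1.5-fold from N-Ras KO.

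Heat shock and neutrophil genes differed between the same 3 arrays in the same direction as Fos and Jun. The WT array lay at least 1.5-fold above the N-Ras KO array on 7 of 13 heat shock genes (1.09% of all probe sets). Above the H-Ras KO array it lay so on 3 (1.51%). The mean of the 13 genes was 0.85 log2 in WT, -0.37 log2 in N-Ras KO and 0.00 log2 in H-Ras KO. Hspa1b and Hspa1a, inducible chaperones, lay 4.56 and 4.04 log2 above the N-Ras KO array in WT. The same 8 of 12 neutrophil genes, among them S100a8 and Ngp, were at least 1.5-fold above both KO arrays in WT (0.621% of all probe sets). The mean of the 12 genes was 1.03, -0.01 and -0.33 log2 in the same order. Since the lists were chosen with earlier results of these data known, these counts are no independent evidence. Both lists had their highest mean in the WT array, as Fos and Jun had their highest values there, with 1 array per genotype. None of 9 T cell genes and none of 11 macrophage and dendritic cell genes reached 1.5-fold in either comparison. In WT, 3 of 11 B cell genes and 1 of 9 NK and CD8 T cell genes were 1.5-fold higher against H-Ras KO only. Of 6 thymic epithelial cell genes, 1 was 1.5-fold higher in WT, against N-Ras KO only. The part of any of these lists in the AP-1 differences was not tested.

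The genes whose profile over the 12 CD4+ arrays was most like that of a member were named by Pearson's r. The 34958 probe sets annotated to 1 gene were searched, those of the member aside. Each gene was taken at its probe set with the highest r, so that these values are maxima of a large search. For Fos they were Skint10 (r = 0.931), Marcks (r = 0.913) and Nfkbid (r = 0.882). For Jun they were Kdsr (r = 0.880), Tnfsf4 (r = 0.868) and Acta1 (r = 0.855), for Atf3 Tfec (r = 0.891), Lpl (r = 0.872) and Gbp3 (r = 0.862), and for Batf Cacul1 (r = 0.944), Fam120a (r = 0.897) and Epn2 (r = 0.887). Among the members themselves r was between -0.626, for Jund and Batf, and 0.685, for Fosl2 and Junb, and it was 0.525 for Fos and Jun. The 12 arrays share pairs and genotypes, and these values are descriptions.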

How the data were processed

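RNA of CD4+ T cells (12 arrays) and thymocytes (3 arrays) was hybridized to Affymetrix arrays. The authors deposited log2 expression values, made per the methods with RMA-16 in GeneSpring GX11 after quantile normalization and set relative to the median of controls; the submitters' processing notes give RMA and no version. The methods name 1 array type for all arrays, whereas the values have 45101 and 22690 probe sets. The baseline removed all levels (tolerance 1e-06 for a median of 0) and voids a comparison of the unstimulated genotypes. Stimulated levels cannot be compared between the genotypes either. No filter on dim probe sets was possible, and precision is limited by the number of arrays.

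Gene names come from the platform annotation in GEO: 34958 with 1 gene, 932 with several and 9211 with none on the CD4+ T cell arrays, and 20393, 691 and 1606 on the thymocyte arrays. Group means of the 12 arrays were fitted with lmFit and eBayes of limma 3.58.1 (R 4.3.3), a fit tested on simulated data, and two-sided p-values were adjusted by Benjamini-Hochberg over the 45101 probe sets. Thymocytes were compared by log2 difference and 1.5-fold only. For the lists and the side-by-side values 1 probe set per gene was taken, by type and then ID. Side by side, only probe sets on both array types were used, which gave 1449117_at for Jund. The r between members and the values by alternative use 1440265_at. Members and lists were chosen with earlier results of these data known. Named genes were all members, Nras, per list the 2 with the smallest p per response and the largest thymocyte differences, and the 3 most alike by r.

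Deviations of stimulated and unstimulated arrays of 1 number correlated at 0.458, 0.447 and 0.738 in WT and 0.361, 0.394 and 0.626 in N-Ras KO cells, so that the numbers pair arrays within a genotype. Alternatives were blocks, the methods' t-test, a fit of 2 groups, centring, quantile normalization, array weights, a robust fit and leaving out arrays.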

Additional observations from a re-analysis of the deposited data

How the results depend on the processing

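No member probe set passed an adjusted p of 0.05 in the 4 CD4+ comparisons under any alternative run (smallest 0.382, Fosl1 in stimulated WT minus N-Ras KO with array weights). At the methods' thresholds, the WT count of 1 member probe set was 2 with array weights and 1 to 2 with single arrays left out, where Fosl1 joined Fos without stimulated WT array 1 or 3. The N-Ras KO count of 2 was 0 by the methods' t-test, 1 with the replicate block within genotype, 1 with 2 groups in the fit, 1 after quantile normalization, 1 with array weights, and 0 to 2 with single arrays left out, where 0 came without stimulated array 3 and 1 without stimulated array 2 or any unstimulated N-Ras KO array. The count of 0 for stimulated WT minus N-Ras KO was 1 with array weights and 0 to 1 with single arrays left out (Fosl1 without stimulated WT array 1 or 3, Fosb without stimulated N-Ras KO array 2). The replicate block changed no other count at the methods' thresholds, and a block for stimulated WT minus N-Ras KO could not be fitted within genotype. Thymocyte counts were 5 in each comparison at 2-fold, after centring and after quantile normalization.

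Without the pairs labelled N-Ras KO 3 and WT 1 the sign turned for the WT response of Fosb (-0.15 log2) and Batf (0.44), the N-Ras KO response of Jund (-0.95) and Batf (0.44), and the difference of responses of Jund (0.85) and Batf (-0.0079). With array weights it turned for the WT response of Atf3 (-0.011), the N-Ras KO response of Junb (-0.016), Jund (-0.45) and Batf (0.11), and the difference of Jund (0.15) and Batf (-0.31). After quantile normalization it turned for the N-Ras KO response (0.10) and the difference (-0.26) of Batf, and after centring for the N-Ras KO response of Fosl1 (-0.012). Values are for 1 probe set per gene, which for Jund was 1440265_at, and the cause was not tested. With 1 array left out the WT response spanned -0.11 to 0.34 log2 for Fosl2, -0.54 to 1.07 for Junb, -0.46 to 0.10 for Jund and -0.69 to 0.70 for Batf. The N-Ras KO response spanned -0.085 to 0.068 for Fosl1, -0.83 to 0.24 for Jun, -0.71 to 0.86 for Junb, -0.82 to 1.00 for Jund, -0.33 to 0.089 for Atf3 and -0.74 to 0.35 for Batf. The difference of responses spanned -0.35 to 0.94 for Fos, -0.42 to 0.074 for Fosl2, -0.67 to 1.00 for Junb, -1.13 to 0.69 for Jund and -0.53 to 0.86 for Batf. In the other members every sign was kept.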
